A study of Mus musculus with 531 samples.

Results

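The genes described here are 7 cell adhesion and epithelial to mesenchymal transition genes, Cdh1, Cdh2, Epcam, Vim, Zeb2, Cldn6 and Cldn7, of 22084 genes in the count table. They were named one by one, with earlier results of these data known, and all 7 held reads in the cells kept. Epithelial cells are joined by adherens junctions, built on E-cadherin (Cdh1), and by tight junctions, built on claudins (Cldn6, Cldn7). Epcam is a further epithelial surface protein. At gastrulation, cells of the epiblast pass through the primitive streak and become mesoderm, and in this epithelial to mesenchymal transition E-cadherin gives way to N-cadherin (Cdh2) and the intermediate filament protein vimentin (Vim) appears. Zeb2 and Snai1 encode transcription factors known to repress epithelial genes by binding E-boxes of the form CACCTG.

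The genes are placed as in the RefSeq annotation of GRCm38.p6. In it, Cdh1 spans chr8:106603350-106670247, Epcam chr17:87635979-87651127, Cldn6 chr17:23679348-23682446 and Cldn7 chr11:69964779-69967886. Vim spans chr2:13574311-13582826 and Zeb2 chr2:44983512-45117442. Cdh2 lies on chromosome 18.

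Single cells of C57Bl/6Babr mouse embryos were collected on 3 days of development (E4.5, E5.5, E6.5), and the RNA and the DNA of each cell were sequenced separately. No embryo carried a mutation or treatment. Counts of RNA reads were available for 91 cells of 5 embryos at E4.5, 80 cells of 1 embryo (number 7 in the labels) at E5.5 and 93 cells of 2 embryos at E6.5. Trophectoderm had been removed by immunosurgery at E4.5 and extraembryonic tissue by hand at the later stages, and cells had been picked by pipette. A minimum of 50000 reads and 2000 detected genes per cell left 75, 59 and 83 cells by stage, of 264 in all, with 112008 to 8904445 reads each. Levels are log2(CPM + 1), where CPM is the reads on a gene scaled by all reads of that cell.

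Cells were clustered within each stage without the 7 genes and without a wider list of 57 adhesion genes that includes them, and clusters were named from marker genes. The E4.5 clusters were 1 of 25 epiblast-like and 1 of 50 endoderm-like cells. Those of E5.5 held 29 epiblast-like, 8 endoderm-like and 22 unnamed cells. At E6.5, 24 were mesoderm-like, led by Mesp1, Aplnr and T, and 14 were endoderm-like. The mesoderm-like name rested on a tie, since 6 epiblast and 6 mesoderm markers were raised, broken by the 2 mesoderm markers among its top 10 genes. The other 45 E6.5 cells matched no marker list as 1 cluster, so they carry no epiblast name here, and its top 10 genes included the trophectoderm marker Elf5. At the finer clustering resolution of 1.0, a cluster of 18 cells, 9 from each embryo, was named epiblast-like, with 7 epiblast and 4 trophectoderm markers raised. The top 10 genes of that cluster held no epiblast marker and 1 trophectoderm marker, Tfap2c, so its name is uncertain. Cells of the unnamed 45-cell cluster with a Pou5f1 level of at least 8 were used as the reference (Pou5f1-high, 33 cells). The other 12 cells of that cluster are called Pou5f1-low. This is a range of 1 gene and not a cell type; 5 cells lay within 1 of the limit, and it was set after values had been seen.

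Of the mesoderm-like cells, 23 came from E6.5 embryo 2 and 1 from embryo 1. That single cell held reads of 1 mesoderm marker, Lhx1, and of no other, so it goes against its name and was left out of the comparisons. In the 23 cells, Mesp1 had a mean level of 8.06, T of 6.53 and Mixl1 of 6.11, against 0.16, 0.27 and 2.72 in the 18 Pou5f1-high cells of the same embryo. Pou5f1 stood at 10.42 and 9.96. Epiblast markers were thus still read in the mesoderm-like cells.

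Endoderm RNA was read in every E6.5 class. All 13 endoderm markers had reads, with a summed level of 948 to 8133 CPM (median 2085) in the mesoderm-like cells and 422 to 12206 CPM (median 3684) in the Pou5f1-high cells of embryo 2, against a median of 18909 CPM in endoderm-like cells. In E5.5 epiblast-like cells the median was 515 CPM and 8 of the 13 markers, Cubn among them, were at 0. The trophectoderm markers summed to a median of 24.96 CPM in mesoderm-like cells, with Esx1 at 0, and 65.9 CPM in Pou5f1-high cells. Mesoderm-like cells were also sequenced less deeply than Pou5f1-high cells of embryo 2, with a median of 712549 reads against 1605206, and had more detected genes, with a median of 9904 against 8838. The part of these differences in the results below was not tested.

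Of the 7 genes, the 3 mesenchymal ones had higher means in the mesoderm-like cells of E6.5 embryo 2 than in its Pou5f1-high cells, with overlapping ranges, and the means of the 4 epithelial ones differed by less than 1. Cdh2, Vim and Zeb2 were each higher by over 3 on the log2 scale (3.25, 3.04 and 3.403), whereas Cdh1, Epcam, Cldn6 and Cldn7 differed by -0.20, -0.20, 0.25 and -0.68. Both classes come from 1 embryo and the classes were cut from the same cells, so these differences are described without a test. Of 16831 genes read at E6.5, 20.1% were higher by over 1 in mesoderm-like cells and 0.98% were lower by over 1, which is the background for 3 of the 7 genes being higher and none lower by that margin. A further reference was the 9 cells of embryo 2 in the cluster named epiblast-like at resolution 1.0, whose top 10 genes held no epiblast marker. Against these 9 cells, the differences were 2.44, 2.35 and 3.403 for Cdh2, Vim and Zeb2. They were -0.89, -0.39, -0.37 and -0.97 for Cdh1, Epcam, Cldn6 and Cldn7, so the sign of Cldn6 depended on the reference.

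Zeb2 was read in 20 of 23 mesoderm-like cells (86.96%, exact 95% interval 66.4 to 97.2). Its level ran from 0 through a median of 3.89 to 6.5, with a mean of 3.403 ± 1.82 (SD over cells). In the 18 Pou5f1-high cells of the embryo it had no read, and 0 of 18 cells allows a share of up to 16.7% (3 counts of 18; the exact 95% interval reaches 18.5%). Over summed reads, Zeb2 stood at 17.2 CPM in mesoderm-like cells, at least 226-fold above the limit of 3 counts over the Pou5f1-high cells of embryo 2. These limits hold for embryo 2 only. In embryo 1, 7 of 15 Pou5f1-high cells held Zeb2 reads, at 1.49 CPM over summed reads. The 3 lowest mesoderm-like cells were at 0 as well.

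Cdh2 was read in all 23 mesoderm-like cells, from 2.40 through a median of 5.99 to 7.38, with a mean of 5.62 ± 1.11. In Pou5f1-high cells of embryo 2 it was read in 15 of 18 and ran from 0 through 2.37 to 5.08, with a mean of 2.37 ± 1.86. The difference of means was 3.25, and the ranges overlapped. Over summed reads Cdh2 stood at 62.7 CPM (58.97 to 66.6, counting error only) against 6.54 CPM (5.76 to 7.39), a ratio of 9.60. N-cadherin mRNA was thus also read in most Pou5f1-high cells, at a lower level, though in fewer of them at equal depth, as given below.

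Vim was read in 22 of 23 mesoderm-like cells and 9 of 18 Pou5f1-high cells. Its level ran from 0 through 5.17 to 6.52 in the former, with a mean of 4.81 ± 1.48, and from 0 through 0.69 to 5.72 in the latter, with a mean of 1.77 ± 2.15. The difference was 3.04, and summed reads gave 37.1 against 5.98 CPM. A Vim level above the mesoderm-like median therefore also occurred in a Pou5f1-high cell.

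When every cell was thinned to 50000 reads, Zeb2 was read in 12 of 23 mesoderm-like cells and in none of the 18, Cdh2 in 19 against 5 and Vim in 20 against 5. The order of the classes was thus the same at equal depth, and the shares were lower.

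**Figure D1:**
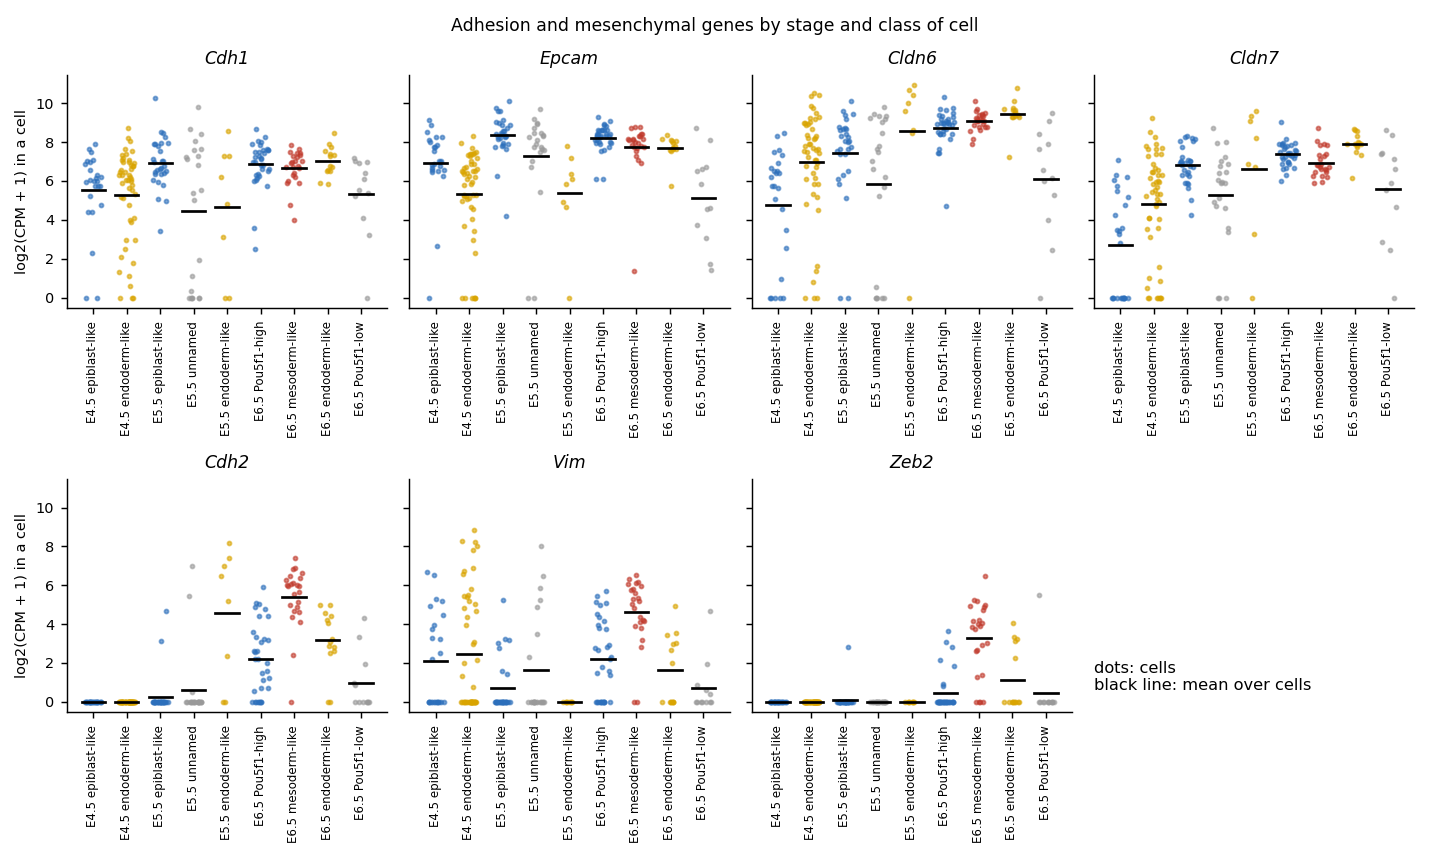
Levels of the 7 genes in each kept cell (dots, vertical axis log2(CPM + 1)) by stage and class, with the mean over cells as a black line; E6.5 classes hold both embryos, and the mesoderm-like class includes the single cell of embryo 1. Zeb2 is at 0 in every E4.5 cell and has its highest level in a mesoderm-like cell, and 1 of the 8 Pou5f1-low cells of embryo 1 also holds it at a high level. Cdh1, Epcam, Cldn6 and Cldn7 stay well above 0 in the 23 mesoderm-like cells of embryo 2.

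The epithelial members stayed present in mesoderm-like cells. Cdh1, the E-cadherin gene, was read in all 23 cells, from 3.98 through a median of 6.79 to 7.65, and had a mean of 6.62 ± 0.89 against 6.82 ± 1.48 in Pou5f1-high cells, where it ran from 2.50 through 7.21 to 8.65. Epcam was read in every cell of both classes, with means of 8.01 ± 0.49 and 8.20 ± 0.87. Cldn6 had the highest mean level of the 7 genes in both classes, 9.07 ± 0.49 in mesoderm-like and 8.82 ± 1.252 in Pou5f1-high cells (levels are not divided by gene length, so they rank genes by reads only). For these 3 genes the difference of means was smaller than the spread between cells of either class.

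Cldn7 was the member with the largest deficit. It ran from 5.92 through 6.71 to 8.03 in mesoderm-like cells and from 6.69 through 7.49 to 9.02 in Pou5f1-high cells, with means of 6.87 ± 0.63 and 7.55 ± 0.59. The ranges overlapped, and the difference of -0.68 placed Cldn7 177th from the lowest of 7657 genes with a mean of at least 3 in either class. Summed reads gave 118 CPM against 221 CPM, a ratio of 0.54. For Epcam the sign depended on the reference, with 0.48 against the whole 22-cell cluster of embryo 2 with no Pou5f1 limit. When both classes were limited to cells with less than 100 CPM of the endoderm gene Cubn (14 and 9 cells), the Epcam difference was -0.79.

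Promoter sequences are shown for the 3 epithelial members with an E-box among the 5 genes searched (Epcam, Cldn6, Cldn7, Vim and Zeb2), because E-boxes are the sites that Zeb2 and Snai1 are known to bind. They are the 250 bases before a RefSeq start of each gene (GRCm38.p6, 5′ to 3′ on the strand of the gene). CACCTG and its reverse complement CAGGTG are in capitals. For Cldn6 and Cldn7 the start lies inside the gene span given above, and the Cldn7 window lies wholly inside that span. At least 1 match was found in 17.2% of 32851 such windows in the annotation. Cdh1 and Cdh2 were not searched here. The first Cldn7 start, at the beginning of its gene span, had no match in its window. Vim (1 start) and Zeb2 (4 starts) had no match either, which says only that these letters are not in those windows.
Epcam, chr17:87635729-87635978: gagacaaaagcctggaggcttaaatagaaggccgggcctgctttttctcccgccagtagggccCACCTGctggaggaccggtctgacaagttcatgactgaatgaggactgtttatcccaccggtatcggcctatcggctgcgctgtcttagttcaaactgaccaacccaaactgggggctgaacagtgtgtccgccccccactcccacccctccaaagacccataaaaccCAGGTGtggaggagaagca
Cldn6, chr17:23679115-23679364: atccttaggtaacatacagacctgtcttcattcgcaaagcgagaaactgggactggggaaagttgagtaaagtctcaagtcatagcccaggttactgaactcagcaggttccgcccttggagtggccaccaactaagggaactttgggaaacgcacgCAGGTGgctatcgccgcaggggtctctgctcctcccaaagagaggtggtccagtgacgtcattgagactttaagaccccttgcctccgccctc
Cldn7, second start, chr11:69965171-69965420: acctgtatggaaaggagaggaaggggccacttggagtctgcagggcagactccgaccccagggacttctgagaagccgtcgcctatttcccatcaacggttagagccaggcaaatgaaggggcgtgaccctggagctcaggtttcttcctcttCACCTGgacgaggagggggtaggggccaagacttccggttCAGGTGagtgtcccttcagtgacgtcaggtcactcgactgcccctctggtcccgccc
The matches begin 187 and 19 bases before the start for Epcam, 93 for Cldn6, and 97 and 57 for Cldn7.

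Both cadherins were read together in single cells. All 23 mesoderm-like cells held reads of Cdh1 and Cdh2, as did 15 of the 18 Pou5f1-high cells, and the other 3 held Cdh1 alone. Cdh2 was above Cdh1 in 4 mesoderm-like cells and in no Pou5f1-high cell. Zeb2, Vim and Cdh2 were all read in 19 mesoderm-like cells and in no Pou5f1-high cell of embryo 2, and 20 mesoderm-like cells held Zeb2 together with Cdh1. With Cdh1 and Cdh2 each read in all 23 mesoderm-like cells, the counts of 23 and 20 follow from those of single genes. Reads of mesenchymal and epithelial genes were thus found together in the same libraries. The part of carried-over RNA or of doublets in this was not tested.

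Among the 23 mesoderm-like cells, which are cells of 1 embryo and share their libraries' depth range, Cdh1 and Mesp1 had a Pearson r of -0.58 (Spearman rho -0.72), given as a description. Cldn6 and Cldn7 had r = 0.72, and their r with the endoderm gene Cubn was 0.61 and 0.57. Cdh1 and Cdh2 had r = -0.01. Spearman rho with Mesp1 was also negative for Cldn6 (-0.60), Cldn7 (-0.57) and Epcam (-0.52). Their Pearson r with Mesp1, at -0.34, -0.34 and -0.40, was weaker than that of Cdh1. The r with Cubn was 0.39 for Cdh1 and 0.41 for Epcam. Neither sign was thus particular to the genes named first.

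**Figure D2:**
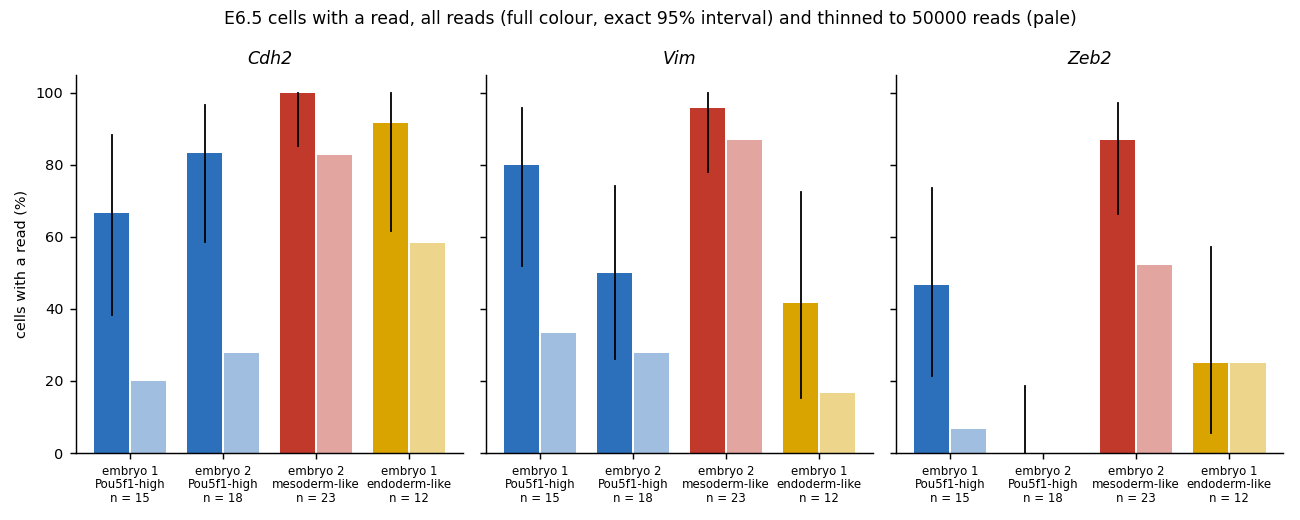
Share of E6.5 cells (vertical axis, percent) with a read of Cdh2, Vim or Zeb2 by embryo and class, from all reads (full colour, exact 95% binomial interval, counting error only) and after thinning each cell to 50000 reads (pale). Zeb2 is read in 20 of 23 mesoderm-like cells of embryo 2, in 0 of 18 Pou5f1-high cells of embryo 2 and in 7 of 15 Pou5f1-high cells of embryo 1.

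E6.5 embryo 1 held no comparable mesoderm-like group, and its 15 Pou5f1-high cells were not identical to those of embryo 2. Zeb2 was read in 7 of the 15 (46.7%, 21.3 to 73.4), against 0 of 18 in embryo 2, but at 1.49 CPM over summed reads and in only 1 of 15 cells at equal depth. Vim was read in 12 of 15 and Cdh2 in 10 of 15 cells, and Zeb2, Vim and Cdh2 were all read in 4. In no cell of embryo 1 was Cdh2 above Cdh1. In embryo 1 the mean levels of Cdh1, Epcam, Cldn6 and Cldn7 in these cells were 6.92, 8.24, 8.67 and 7.17, against 6.82, 8.20, 8.82 and 7.55 in embryo 2.

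Within the list of 57 adhesion genes, 16 were higher by over 1 in the mesoderm-like cells and 3 lower, with a median difference of 0.25, against 0.28 over all genes read, of which 20.1% were higher and 0.98% lower by over 1. The list as a whole thus had a median close to that of all genes. By role, 5 of 9 mesenchymal genes and 4 of 8 transcription factors were higher, and 4 of 11 adherens junction genes. In the other roles, 1 of 15 tight junction, 1 of 5 desmosome and 1 of 9 epithelial regulator genes were higher.

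The largest difference was that of Snai1, which encodes a repressor of E-cadherin: it was read in all 23 mesoderm-like and 5 of 18 Pou5f1-high cells, with means of 6.51 and 0.40. Cdh11, a mesenchymal cadherin, stood at 3.87 against 0.12. Fibronectin (Fn1), a matrix protein, stood at 8.14 against 4.54. Beside the members, these made up the 5 largest differences with Zeb2 and Cdh2. Of the other 6 transcription factors on the list, all given here, Foxc2 was read in 19 of 23 mesoderm-like and 0 of 18 Pou5f1-high cells (difference 2.73) and Twist1 in 13 and 2 (1.34). Zeb1 was read in 7 and 0 cells (0.92) and Twist2 in 3 and 3 (-0.13). Snai2 was read in 0 and 1 cell, and Prrx1 in none of either class.

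The largest deficits were in other claudins. Cldn3 was read in 6 of 23 mesoderm-like and 14 of 18 Pou5f1-high cells, a difference of -3.08, and Cldn4 differed by -1.90. Grhl2, which encodes a transcription factor of epithelia, differed by -1.47. Cldn7 (-0.68) and the plakophilin gene Pkp2 (-0.59) completed the 5 lowest among list genes with a mean of at least 3 in either class, and lay within 1. Of the 5 claudins on the list, Cldn3 and Cldn4 were thus lower by over 1, Cldn6 and Cldn7 were within 1, and Cldn5 was read in 2 mesoderm-like cells.

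**Figure D3:**
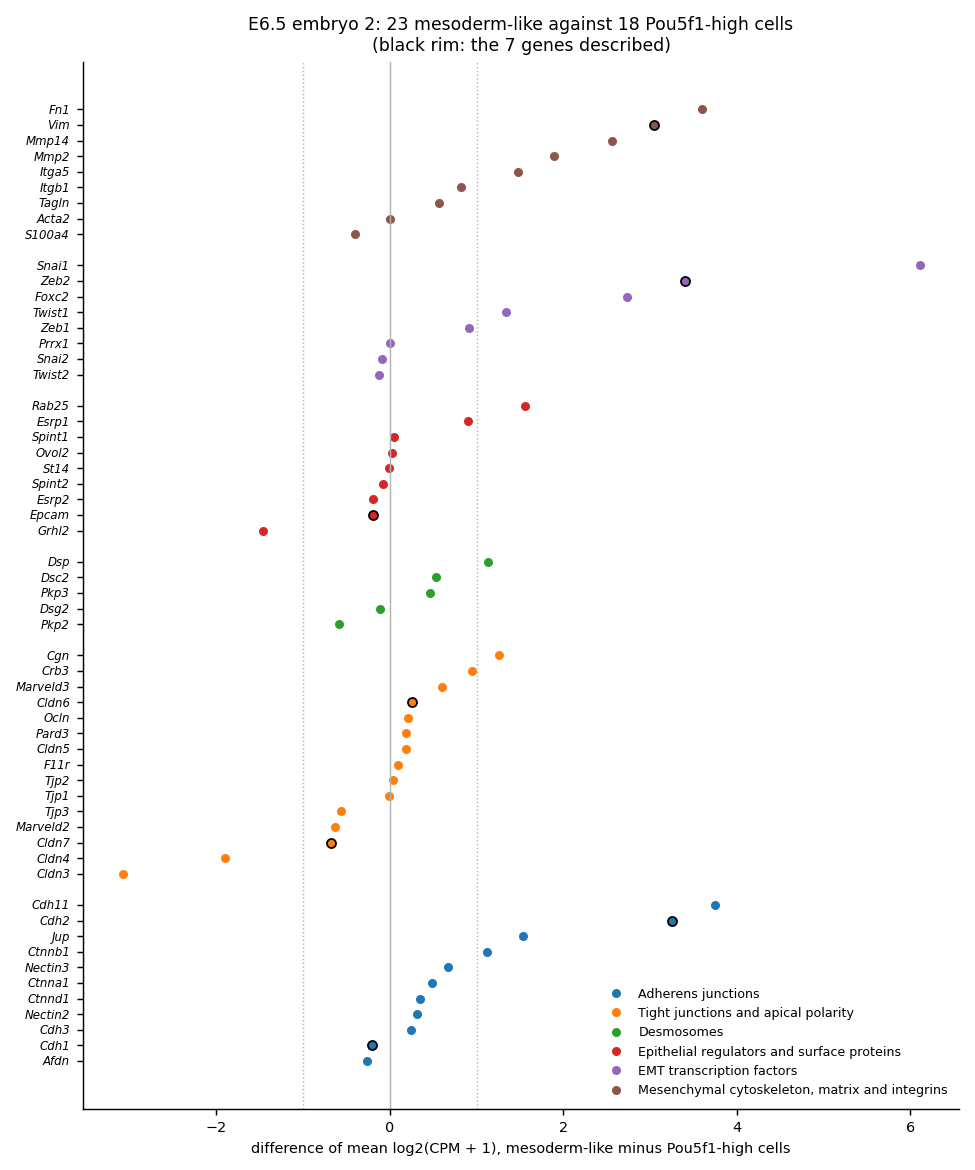
Difference of mean log2(CPM + 1) between 23 mesoderm-like and 18 Pou5f1-high cells of E6.5 embryo 2 (horizontal axis) for the 57 adhesion genes, grouped and coloured by role, with the 7 genes described rimmed in black and dotted lines at -1 and 1. Snai1 lies farthest to the right at 6.11 and Cldn3 farthest to the left at -3.08.

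In E6.5 endoderm-like cells (12 of embryo 1, 2 of embryo 2), Cldn6 and Cldn7 were above the Pou5f1-high cells in both embryos. The difference was 0.63 and 1.63 for Cldn6 and 0.68 and 0.59 for Cldn7, and Epcam was lower by 0.56 and 0.27. Genes higher by over 1 with 1 sign in both embryos were 14.3% of all, and lower ones 2.81%. Cldn6 alone of the 7 genes was past 1 in the mean with 1 sign in both. The Zeb2 mean of 1.52 rested on embryo 2 alone, where 2 cells held 11 reads, and was -0.23 in embryo 1. Cdh2 was higher in embryo 1 (1.44) and lower in embryo 2 (-0.76).

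At E4.5 the embryo is the replicate, and Cldn6 and Cldn7 were higher in endoderm-like than in epiblast-like cells, whereas the mean difference of the other claudins on the list was -4.41 for Cldn4, -0.43 for Cldn3 and -0.42 for Cldn5. Cldn6 was higher in all 5 embryos, by 3.59, 2.94, 3.76, 1.93 and 1.19 in embryos 1 to 5, a mean of 2.68 ± 1.10 (SD, n = 5). Cldn7 was also higher in 5 of 5, by 2.45 ± 1.48, although by 0.03 in embryo 4. Epcam was lower in 5 of 5, by a mean of -1.36 ± 0.85, although by -0.01 in embryo 1. For background, 9.48% of 15471 genes were higher by over 1 in the mean with 1 sign in all 5 embryos and 5.88% were lower. These are descriptions, since the clusters were made from the same cells.

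Cdh1 did not separate the lineages at E4.5: the mean difference was -0.08 ± 1.51, positive in 2 embryos and negative in 3. Vim was higher in endoderm-like cells in embryos 1 and 2 (1.66 and 3.81), which carry the label prefix P1, and lower in embryos 3, 4 and 5 (-0.51, -0.29 and -0.89), which carry P2. Its mean of 0.76 ± 1.97 was smaller than its spread. Cdh2 and Zeb2 had no read in any of the 75 cells.

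**Figure D4:**
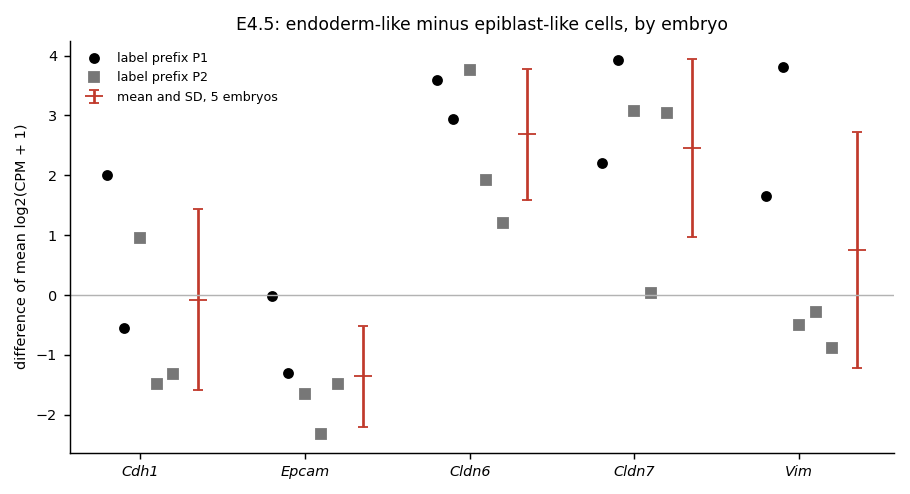
Difference of mean log2(CPM + 1) between endoderm-like and epiblast-like cells (vertical axis) in each of the 5 E4.5 embryos for the 5 members read at that stage, embryos 1 to 5 from left to right, with the mean and SD in red; circles are embryos with prefix P1 and squares those with P2. Cldn6 and Cldn7 lie above 0 and Epcam below 0 in every embryo, while Vim is above 0 in the 2 P1 embryos and below 0 in the 3 P2 embryos.

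At E5.5 the 8 endoderm-like cells, all of 1 embryo, held Cdh2 at a mean of 4.58 over all 8, of which 6 had reads, against 0.27 over 29 epiblast-like cells, of which 2 had reads. Epcam was lower, at 5.36 against 8.34, and so was Cdh1, at 4.67 against 6.91. Cldn6 was higher, at 8.59 against 7.43. Vim and Zeb2 had no read in these 8 cells. With 33.9% of 13865 genes lower by over 1 and 7.98% higher, and a median of 4224 detected genes against 6181, lower values were common in this class. Over summed reads Cdh1 differed by -0.81 and Cldn7 by 1.04 on the log2 scale, where the means over cells gave -2.24 and -0.19.

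Cldn6 and Cldn7 rose between the epiblast-like cells of E4.5 and the Pou5f1-high cells of E6.5, which carry no epiblast name. Summed over the cells of an embryo, Cldn6 had 31.7 to 123 CPM in the 5 E4.5 embryos (mean 78.2 ± 43.5) and 448 and 449 CPM in the 2 E6.5 embryos, and Cldn7 had 8.69 to 35.9 CPM (23.4 ± 13.1) against 138 and 221 CPM. Neither gene overlapped between the stages, and the share of all genes without such overlap was not counted. In edgeR's quasi-likelihood test across 13189 genes, Cldn6 rose by 2.59 on the log2 scale (SE 0.51, adjusted p = 0.0168) and Cldn7 by 2.99 (SE 0.61, adjusted p = 0.0191). Genes called by edgeR were 1.22% higher and 1.49% lower.

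Jup (plakoglobin, a junctional plaque protein) and Fn1 fell, by 2.66 (edgeR adjusted p = 0.0221) and 2.88 (0.0114). These 4 genes were the calls among 50 tested of the list, 2 in each direction, whose median log2 fold change was 0.56 against 0.11 over all genes tested. The E6.5 cells here are Pou5f1-high cells, and endoderm markers sum to a median of 4132 CPM in them and 2202 CPM in E4.5 epiblast-like cells. Trophectoderm markers sum to a median of 89.4 CPM in the former and 0 CPM in the latter. Cldn6 and Cldn7 were both higher in endoderm-like cells at E4.5 and at E6.5. The part of endoderm or trophectoderm RNA in the change was not tested. Of 19 alternative settings, Cldn6 passed the threshold in 15, Cldn7 in 16, Jup in 14 and Fn1 in 16. The call was lost for Cldn6 without either E6.5 embryo (adjusted p = 0.0761 and 0.0767), for Cldn7 without embryo 2 (0.173) and without the 5 E4.5 cells that also raised endoderm markers (0.140), for Jup without either E6.5 embryo (0.182 and 0.138) and without E4.5 embryo 3 (0.0583), and for Fn1 without E6.5 embryo 1 (0.128) and without the 5 cells (0.0651). With all kept cells of an embryo in place of these classes, all 4 edgeR calls were lost (adjusted p = 0.189, 0.0531, 0.0710 and 0.898 for Cldn6, Cldn7, Jup and Fn1). Jup was also lost at clustering resolution 1.0 (0.104) and Cldn6 with a block of embryo numbers (0.0587).

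The other epithelial members did not pass the edgeR test. Cdh1 stood at 81.2 ± 24.3 CPM at E4.5 and 118 ± 4.51 CPM at E6.5, a log2 fold change of 0.64 (SE 0.45, adjusted p = 0.498), and Epcam at 179 ± 64.9 and 301 ± 31.3 CPM, a change of 0.84 (SE 0.40, adjusted p = 0.268). Vim stood at 14.6 ± 12.6 CPM in E4.5 embryos and 7.30 ± 1.87 CPM at E6.5 (edgeR adjusted p = 0.805). Cdh2 was at least 54.3-fold and 44.9-fold higher in the 2 E6.5 embryos than the limit that 0 reads in 20605626 at E4.5 allow (3 counts over the group), with an edgeR adjusted p of 0.0985. Zeb2 did not pass the filter on low counts and was not tested. For E5.5, which is 1 embryo assumed to vary like the others, edgeR put 0.0682% of genes above and 0.197% below E4.5, and no call of a single gene is drawn from it.

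**Figure D5:**
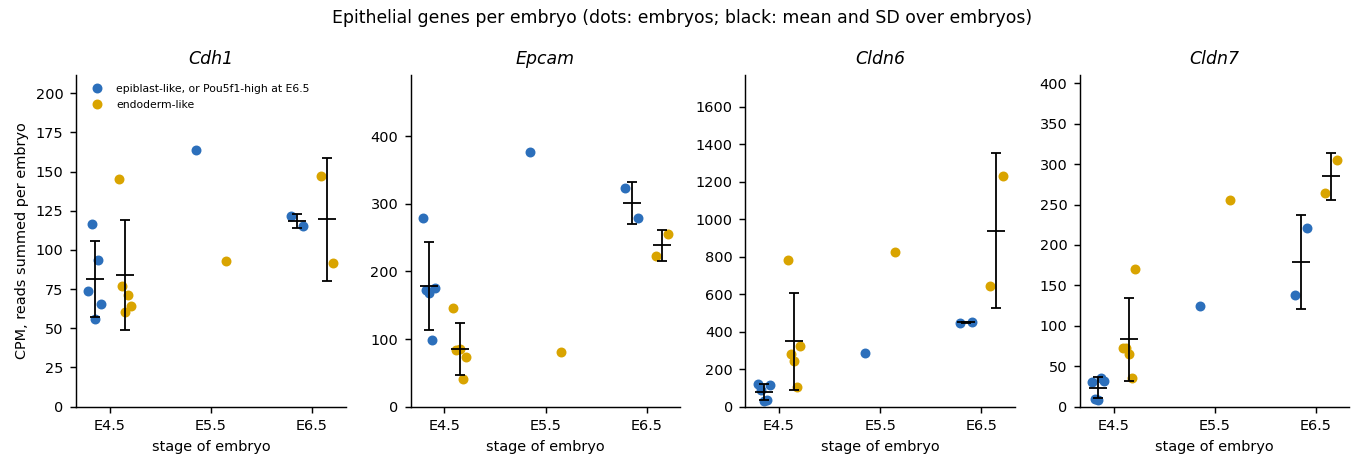
CPM over the summed reads of each embryo (vertical axis) by stage (horizontal axis) for Cdh1, Epcam, Cldn6 and Cldn7, with dots for embryos (blue: epiblast-like, or Pou5f1-high at E6.5; yellow: endoderm-like) and black marks for the mean and SD over embryos. Cldn6 lies at 31.7 to 123 CPM in the 5 blue E4.5 embryos and near 449 CPM in both blue E6.5 embryos.

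In endoderm-like cells between E4.5 and E6.5, Cdh2 was the member that passed the test. It had no read in 59809486 at E4.5 and 227 reads in E6.5 embryo 1, at least 278-fold above the limit of 3 counts, but only 2 reads in the 2 cells of embryo 2 (edgeR adjusted p = 0.000515). The edgeR call was lost without embryo 1 (adjusted p = 0.136) and with a block of embryo numbers (0.0634), and held in 12 of 14 alternatives. Cldn3, Cldn4 and the epithelial Rab25 also rose and the integrin gene Itga5 fell, which made 4 higher and 1 lower of 49 list genes tested, against 2.14% and 1.84% of 13341 genes. Of the alternatives that gave a value, Cldn3 passed in 12 of 14, Cldn4 in 10 of 13, Rab25 in 10 of 15 and Itga5 in 12 of 15. Cldn7 (1.63, SE 0.47, edgeR adjusted p = 0.0509), Vim (-3.01, SE 0.88, adjusted p = 0.0575), Epcam (1.41, SE 0.43, adjusted p = 0.0683), Cldn6 (1.36, SE 0.45, adjusted p = 0.104), Zeb2 (no read at E4.5, adjusted p = 0.113) and Cdh1 (0.44, SE 0.46, adjusted p = 0.689) did not pass. They passed in 6 of 15 alternatives for Cldn7, 3 of 15 each for Vim and Epcam, 2 of 15 for Cldn6, 1 of 13 for Zeb2 and 0 of 15 for Cdh1. The 2 lineages share no cells, and whether their changes differ was not tested.

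Over 16 groups of cells (stage, embryo and class, at least 3 cells each, leaving out the E5.5 unnamed and E6.5 Pou5f1-low cells), the genes most like each member were named by Pearson r among 6062 genes. The groups of 1 embryo share a dissection and a depth range, so r is a description. Zeb2 was most like Sp5 (r = 0.998), Gas1 (0.968) and Frzb (0.960). Its mean was 3.403 in the mesoderm-like group and at most 1.01 in the other groups, and Sp5 and Frzb are among the top 10 genes of the mesoderm-like cluster, so 1 group weighs heavily in these r. Cdh2 was most like Pkdcc (0.969), Greb1 and the mesoderm marker Lhx1, and Vim most like Pom121 (0.848). Cldn6 and Cldn7 were among the 3 genes most like each other (0.881). Cdh1 was most like Zpr1 (0.907) and Epcam most like Trappc4 (0.933).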

How the data were processed

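Reads of Smart-seq2 libraries from single cells were analysed; the authors deposited them as counts per gene without normalization, and the bisulfite data of the same cells are not analysed here. The submitters' processing notes name Trim Galore 0.4.2 and 0.4.5, cutadapt 1.8.1, HISAT2 2.1.0, featureCounts, R 3.4.3, Bismark 0.19.0 and the GRCm38 build, with no role for each; the annotation counted on is not given in the sources used here. Stage and embryo came from the labels, which name 5 embryos at E4.5, more than the study's methods do. Label prefixes follow the stage, so a batch that follows them and the stage cannot be told apart. Nothing in the labels pairs embryos across stages. Identifiers were matched to symbols for 21907 of 22084 genes. The intervals (exact Clopper-Pearson or Poisson, 95%) and the limits of 3 counts hold counting error only. They take each read or cell as a separate count, and no molecular identifiers were used to tell amplified copies apart. They leave out amplification and the spread between cells and embryos, so the true error is wider. Cells had been picked by hand, and no doublet caller was run.

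The members and the lists of adhesion and marker genes were chosen with earlier results of these data known. Genes named are the 7 members, the 5 largest differences each way on the list between mesoderm-like and Pou5f1-high cells with a mean of at least 3, list genes past the threshold in the epiblast fit, and the 3 genes most like each member, among genes with a mean of at least 5 in a group. The other transcription factors of the list, Cldn5, and the list genes called in the endoderm fit, were named after their values were seen.

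Clusters came from Leiden (scanpy 1.11.5, leidenalg 0.10.2, 2000 variable genes, 20 components, resolution 0.5, 15 neighbours, 5 at E5.5, seed 0). A cluster took the list with the most raised markers (a difference of 1 or more and reads in 50% or more of the cells), with a minimum of 3 markers. The first versions scaled the genes; 3 versions at 4 settings were run, and the unscaled one, which set apart the 8 E5.5 endoderm-like cells, was kept after partitions and values had been seen. The rule for ties and the Pou5f1 limit of 8 (highest level below it 7.65, lowest above it 8.40) were also set then. The mesoderm-like cluster held the same 24 cells in the scaled versions as recomputed; their first runs used a slightly different gene selection and split E6.5 a little differently.

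From the counts, CPM and log2(CPM + 1) were computed, and differences between classes were described without a test. Between stages, counts summed per embryo and class were tested with edgeR 4.0.16 (quasi-likelihood, TMM, default filter on low counts, Benjamini-Hochberg, threshold 0.05), with the single E5.5 embryo sharing the spread of the others. The test was checked on simulated counts with 200 genes changed 4-fold. In the fit of epiblast-like (E6.5: Pou5f1-high) cells over 12423 genes edgeR recovered 30% with 8 false calls of 68, and in endoderm-like cells over 12585 genes 47.5% with 6 of 101. DESeq2 1.42.0 recovered 42.5% and 57.5%, with 150 false calls of 235 and 70 of 185. limma 3.58.1 was a further alternative. Alternatives were other tests, normalizations, filters, pseudocounts, thinning, clustering settings, a block of embryo numbers and each embryo left out. The scaled clusterings, other references, low-Cubn cells and mixed cells were added after seeing the data.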

Additional observations from a re-analysis of the deposited data

Results flagged for a closer look

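Cldn7 was at about the same mean level in endoderm-like and epiblast-like cells of the E5.5 embryo (difference -0.19), whereas it was higher in endoderm-like cells in all 5 embryos at E4.5 and in both at E6.5. These values stood out because the sign differed between stages in every embryo, and the difference was not tested. The change from E4.5 to E5.5 was -2.644 and from E5.5 to E6.5 was 0.824 on the log2 scale. E5.5 is 1 embryo with 8 endoderm-like cells, and its difference was 1.04 over summed reads and 1.89 in the 4 cells that met a stricter minimum of 200000 reads and 4000 genes. Of 15 groups of embryos examined for an embryo far from the others, 0 had one.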

How the results depend on the processing

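Differences between classes at E4.5 moved by less than the spread between embryos under all 15 alternatives for the 5 genes read at that stage. In the comparison of mesoderm-like with Pou5f1-high cells, Cdh1, Cldn6 and Cldn7 moved by less than the spread under all 11 alternatives. With 1 embryo there, the spread is the SD over the E4.5 embryos' epiblast-like means, or over the 2 E6.5 embryos' Pou5f1-high means for Cdh2 and Zeb2, which had no read at E4.5. With a pseudocount of 10 the differences of Cdh2, Vim and Zeb2 were 1.86, 1.41 and 1.21. Summed counts gave Zeb2 4.19. Thinning to 50000 reads gave Cdh2 3.64 and Zeb2 2.66. Cdh2 was 2.44 against the cluster named epiblast-like at resolution 1.0, whose top 10 genes held no epiblast marker. It was 3.56 with scaled genes and igraph, and 3.53 against the whole unnamed cluster, where Epcam was 0.48. Epcam was -0.79 under 100 CPM of Cubn.

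For endoderm-like cells at E6.5, Zeb2 was 0.44 with a pseudocount of 10, 0.65 with scaled genes and 0.73 with scaled genes and igraph. Cdh2 was -0.39 over summed counts, 0.82 with scaled genes and igraph and 0.65 against the whole cluster, where Epcam was 0.41. Leaving out 1 embryo gave -0.76 to 1.44 for Cdh2, -1.43 to 1.69 for Vim and -0.23 to 3.27 for Zeb2, which reversed without embryo 2. At E5.5, Cdh2 was 2.26 with a pseudocount of 10 and 3.59 after thinning. Summed counts gave Cdh1 -0.81, Cdh2 5.18, Epcam -2.19 and Cldn7 1.04. The stricter cell filter gave Cdh1 -0.93, Cdh2 4.95, Cldn6 2.87 and Cldn7 1.89. Against all cells outside the endoderm-like cluster, and at resolution 0.3, Cdh1 was -1.18. The cause was not tested. No value was had at E6.5 for resolution 0.3, at E5.5 for scaled genes, or for endoderm-like cells under 100 CPM of Cubn.

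For Pou5f1-high cells of E6.5 against epiblast-like cells of E4.5, edgeR called 161 genes higher and 196 lower. DESeq2 called 397 and 669, all kept cells gave 607 and 401, limma with equal weight per cell 979 and 345, no filter on low counts 604 and 386, and without the 5 mixed E4.5 cells 76 and 122. The count of higher genes was 98 at resolution 1.0 and 254 with the whole unnamed cluster. Leaving out 1 embryo gave 52 to 180 higher and 83 to 198 lower. For E5.5 against E4.5 (9 higher and 26 lower, with 1 embryo at E5.5 assumed to vary like the others, so not read as a difference of stages), DESeq2 gave 50 and 359, all kept cells 141 and 131, limma 502 and 118, no filter 106 and 110, stricter cells 15 and 45, and without mixed cells 5 and 10. Leaving out 1 embryo gave 4 to 14 and 11 to 39. In endoderm-like cells (286 higher and 245 lower), DESeq2 gave 487 lower, limma 513 higher and no filter 471 and 389. Leaving out 1 embryo gave 91 to 348 and 69 to 290.

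Same-numbered embryos did not deviate together (r = -0.02 and 0.03 in epiblast-like cells, -0.12 and 0.05 in endoderm-like cells), so the numbers do not pair them. A block of embryo numbers gave 94 higher genes for E6.5 in the first of these fits, 36 and 74 for E5.5 and 149 higher in endoderm-like cells, and put Cldn6 at an edgeR adjusted p of 0.0587 and Cdh2 of endoderm-like cells at 0.0634. With few embryos, edgeR recovered 30% and 47.5% of the simulated 4-fold changes, so changes of that size were missed more often than not.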
